A study of Chlamydomonas reinhardtii with 3 samples.

Results

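The set described here holds 407 nuclear genes of the green alga Chlamydomonas reinhardtii that carried little cytosine methylation in wild type cells and a deposited level at least 10 percentage points higher in cmd1 knockout (cmd1 KO) cells. They were chosen from the deposited levels themselves. A gene entered when it lay on chromosomes 1 to 14, 16 or 17, stood under 5% in wild type and had a cmd1 KO level minus wild type level of at least 10 points. They are 407 of the 17326 genes with a level in both columns, and 407 of the 16155 genes under 5% on those chromosomes, called the low genes below.

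Genomic DNA was read by whole-genome bisulfite sequencing, in which unmethylated cytosine is converted and read as thymine while methylated cytosine stays cytosine. There was 1 wild type library and there were 2 libraries labelled cmd1 KO, all of strain CC125 and all from cells moved from dim light (20 μmol photons per square metre and second) in acetate medium to high salt medium under 300 μE. The sources used here state neither the cmd1 allele, nor the number of mutant clones, nor the time in high light. The 2 cmd1 KO libraries share 1 deposited column, so each genotype has 1 value per gene, no difference has a replicate check, and no test between genotypes was possible.

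CMD1 belongs to the family of TET dioxygenases, enzymes that in animals oxidise the methyl group of methylcytosine. The algal enzyme differs in that it uses vitamin C as a substrate and leaves a glyceryl group, derived from it, on the methyl group. Methylation in the nuclear genome of this alga is sparse in most genes. The files and the reference give the genes of the set no name, so they are identified by locus number alone and no function is assigned to any of them. None of the 7 loci LHCSR1, LHCSR3.1, LHCSR3.2, PSBS1, PSBS2, CMD1 and VTC2 was in the set (0 of 7). The set held only 2.52% of the low genes, so this count is no result about these loci.

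The wild type level of the 407 genes had a median of 1.42%, with quartiles of 0.96% and 2.30%, and ranged from 0% to 4.93%. In cmd1 KO the median was 14.2%, with quartiles of 12.2% and 17.3%, and the range ran from 10.1% to 42.6%. Almost unmethylated in wild type, the genes thus stood at a low to intermediate level in cmd1 KO, and none reached 50%. The cmd1 KO level was a median of 9.90 times the wild type level in the 404 of these genes that were above 0 in wild type. The differences had a median of 12.2 points and quartiles of 10.8 and 15.2 points. Most genes lay near the threshold, since 110 differed by at least 15 points, 35 by at least 20 and 4 by at least 30. Because the genes were chosen by this difference, these values describe the set and support nothing further.

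As background, a level at least 10 points higher in cmd1 KO was found in 3.5% of all genes with both levels (607 of 17326) and in 2.52% of the low genes. The other 15748 low genes had a wild type median of 1.02%, a cmd1 KO median of 5.76% and a median difference of 4.69 points. The threshold cuts through a continuous distribution and separates no distinct group. Just inside it lay Cre09.g399100 with a difference of 10.01 points, and Cre09.g406500 and Cre05.g245950, each with 10.02 points. Just outside lay Cre07.g354850 and Cre10.g465793 with 9.99 points each and Cre08.g374600 with 9.96 points. At the limit on the wild type level, Cre10.g423150 stood at 4.93% and was included, whereas Cre03.g143747 stood at 5.09% in wild type and 25.7% in cmd1 KO and was not.

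**Figure D1:**
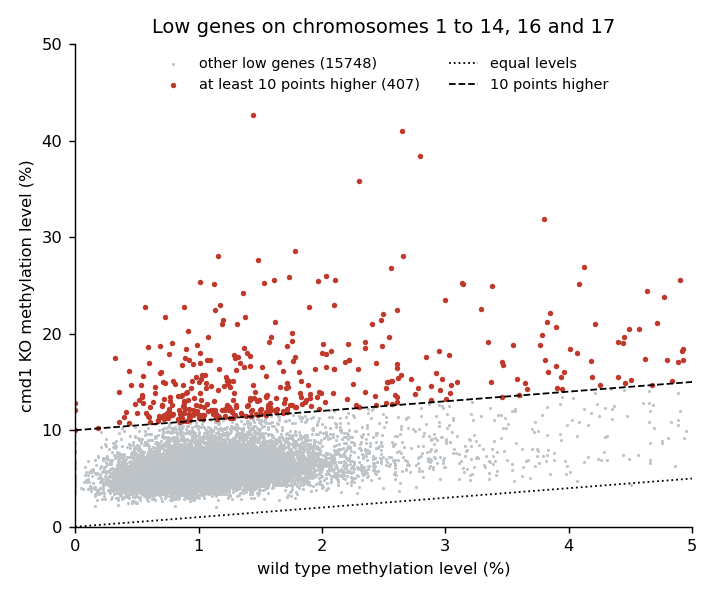
Each point is a low gene, with its deposited wild type level on the horizontal axis and its cmd1 KO level on the vertical axis, both in percent. The 407 genes (red) lie above the dashed line of 10 points and adjoin the cloud of the other 15748 low genes (grey), and 4 of them stand more than 30 points above wild type.

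The largest differences reached intermediate levels of methylation. Cre01.g011950 stood at 1.44% over 48 listed wild type sites and at 42.6% over 57 listed cmd1 KO sites, 41.2 points apart. Cre04.g227750 stood at 2.65% over 102 sites and 40.9% over 155 sites, 38.3 points apart. Cre12.g535500 stood at 2.79% over 64 sites and 38.4% over 58 sites, and Cre17.g719771 at 2.30% over 111 sites and 35.9% over 131 sites. These 4 genes, on 4 chromosomes, were the ones past 30 points, and in each the cmd1 KO list was about as long as the wild type list or longer. After them the differences dropped to 28.1 points in Cre07.g317850, which stood at 3.79% in wild type and 31.9% in cmd1 KO. Cre05.g245500 (26.8 points), Cre14.g618611 (26.7 points), Cre12.g514100 (26.2 points), Cre06.g252800 (25.4 points) and Cre09.g401301 (24.3 points) completed the 10 largest. Of these 10, Cre12.g514100 had the fewest cmd1 KO sites, 20 against 62 in wild type.

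The number of listed sites differed between the columns, and this bears on every cmd1 KO level in the set. The 407 genes had a median of 73 wild type sites and 31 cmd1 KO sites, and the cmd1 KO number divided by the wild type number had a median of 0.41. Over the other low genes the medians were 83 and 25 sites, and this ratio was 0.30. More cmd1 KO than wild type sites were listed in 11 of the 407 genes (2.70%, exact Clopper-Pearson 95% interval 1.36% to 4.78%) and in 47 of the other low genes (0.30%, 0.22% to 0.40%). These intervals, like the others for shares of genes, cover counting error only and take genes as independent.

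The site lists behind the columns were not alike. Multiplied by its site number, the level of each of the 17326 genes, the 407 included, gave whole steps of 0.001 in both columns, within 1e-06. In 348 of the 407 genes the wild type mean lay below the least mean that distinct levels in such steps allow, so these lists held repeated levels, such as several sites at 0. The same held for 96.2% of the other low genes and 91.3% of all genes, against 85.5% of the 407. The cmd1 KO mean lay below that limit in 0 of 407 genes and in 0 of all 17326. For the 407 genes this was fixed by the rule, because at their site numbers (at most 155) the limit is under 10%. In the 3 members at 0 in wild type, Cre13.g579582, Cre14.g632831 and Cre17.g729550, the p-value in the authors' deposited table equalled the p of a two-sided rank-sum test in which 1 cmd1 KO level was 0 and the rest were all different, with a relative gap of at most 6.79e-14. Where a cmd1 KO list holds each level once, its many unmethylated sites count as 1 and its mean is raised. Whether this was so in the other 404 genes was not tested.

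The cmd1 KO level was therefore also computed at larger, assumed numbers of sites, by spreading its summed level over them with the added sites at 0. With at least as many sites as in wild type, all 407 genes remained above their wild type level, as did 92.9% of the other low genes and 92.1% of all genes. The median difference was 4.46 points, and 52 genes stayed at least 10 points higher (0.322% of the low genes and, by the same measure, 1.07% of all genes). In 14 of the 52 genes the cmd1 KO column already listed that many sites. With 1.52 times the wild type sites, the median site ratio of 150 heavily methylated genes (40% or more in wild type), 13 genes stayed (0.0805% of the low genes, and 0.439% of all genes). With 2.02 times, the 95th percentile of that ratio, 10 genes stayed (0.0619% and 0.202%), and the median difference was 1.41 points. At that number 375 of 407 genes (92.1%) lay above wild type, against 32.9% of the other low genes and 33.6% of all genes. Most of the 407 genes were thus under 10 points once zeros were added. The added zeros lower the levels by construction, and since the true numbers of sites were not analysed here and could be larger, these values are not lower limits. The set was chosen by the same cmd1 KO levels. Its higher shares above wild type than in other genes therefore follow at least partly from the rule and support nothing further.

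The 10 genes that kept 10 points under the largest number of sites included 6 of the 10 with the largest deposited differences. At this assumed number Cre04.g227750 stood 28.2 points above wild type, Cre01.g011950 23.7 points, Cre17.g719771 18.7 points, Cre14.g618611 16.6 points and Cre12.g535500 14.5 points. Cre05.g245500 was at 10.05 points and Cre05.g245701 at 12.5 points, while Cre05.g245550, which lies between them, was at 6.61 points. On chromosome 9, Cre09.g397550 was at 15.7 points and Cre09.g397052 at 11.9 points. The last, Cre04.g217959, kept its deposited 10.7 points because 12 cmd1 KO sites stood against only 5 in wild type.

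**Figure D2:**
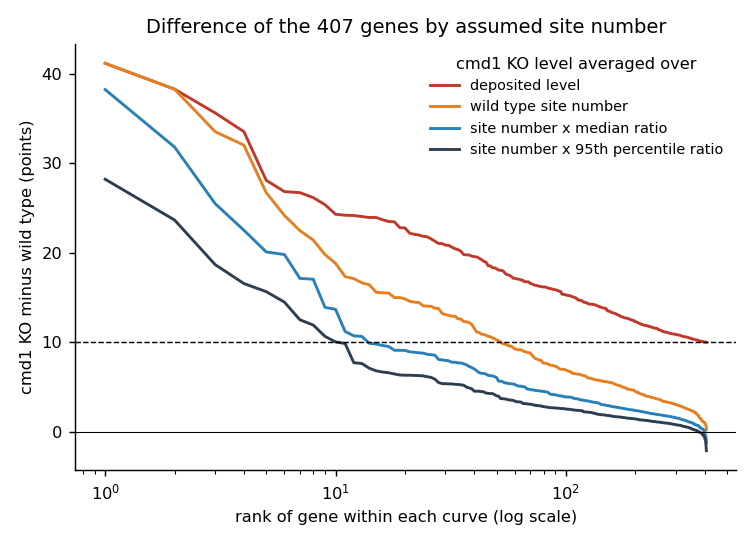
The difference between cmd1 KO and wild type in percentage points is drawn for the 407 genes, each curve sorted by its own values, for the deposited cmd1 KO level and for 3 larger assumed numbers of sites. The dashed line marks 10 points, which all 407 genes pass with the deposited level, 52 with the wild type site number, 13 with the median ratio and 10 with the 95th percentile.

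A single site could also carry much of a difference. The cmd1 KO levels of a gene summed to a median of 4.42 (in units of 1 fully methylated site) in the 407 genes and 1.43 in the other low genes, and the wild type levels to 1.05 and 0.85. With 1 fully methylated site taken out of the cmd1 KO list of each gene, 168 of the 407 genes (41.3%) would keep 10 points and the median difference would be 9.16 points. Where the levels of a gene summed to less than 1 such site, it can hold no fully methylated site, and its cmd1 KO level was set to 0. The removal lowers levels by construction, and its share over all genes was not computed, so these values describe the set only. The level of each site was not analysed here. Under 20 cmd1 KO sites were listed in 101 of the 407 genes (24.8%), against 31.3% of the other low genes and 29.8% of all genes. Under 10 were listed in 26 (6.39%), against 4.84% and 4.76%.

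P-values from the authors' deposited table did not set these genes apart. After Benjamini-Hochberg adjustment over all 17326 genes, 406 of the 407 genes passed 0.05, and so did 99.8% of the low genes and 97.6% of all genes in the direction of cmd1 KO. The exception was Cre04.g217959, with a p of 0.125 in the authors' deposited table, which became 0.128 after the Benjamini-Hochberg adjustment made here. No source used here names the test behind these p-values, and they compare lists of sites, not genotypes.

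The share of low genes that belonged to the set was higher in classes with slightly more wild type methylation. Of the 7538 genes under 1% in wild type, 110 were in it (1.46%, exact 95% interval 1.20% to 1.76%). The share was 2.21% between 1% and 2% (174 of 7858 genes), 11.8% between 2% and 3% (63 of 533), 21.9% between 3% and 4% (32 of 146) and 35.0% between 4% and 5% (28 of 80, interval 24.7% to 46.5%). The wild type level is part of the rule, so these shares describe the set only. Over all low genes of a class, the median difference went from 4.66 points under 1% to 7.98 points between 4% and 5%. The genes of the set under 1% had a median difference of 11.8 points and at most 22.2 points, and 1 of the 110 kept 10 points with the wild type site number. Between 1% and 5%, 51 of the other 297 genes did so, including all 4 genes past 30 points.

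The share also varied with the listed sites. It was 3.40% of low genes with 5 to 39 wild type sites (54 of 1587) and 1.41% of those with 120 or more (35 of 2487). By cmd1 KO sites, it was 3.30% with 5 to 9 sites, 1.77% with 10 to 19 and 1.64% with 20 to 29. It was 2.73% with 30 to 49 sites, and 19.6% with 50 or more (72 of 368 genes). The set therefore joined genes with short and with long cmd1 KO lists. Where such a list holds each level once, its length depends on the cmd1 KO levels, which are part of the rule. The shares by cmd1 KO sites thus describe the set only.

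**Figure D3:**
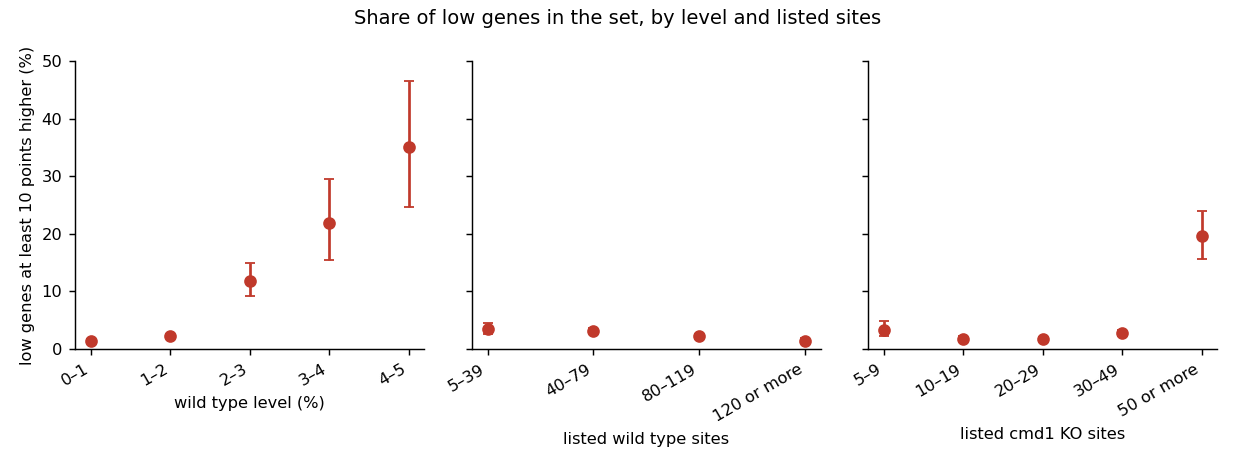
Points give the percentage of low genes that belong to the set, by wild type level (left), listed wild type sites (middle) and listed cmd1 KO sites (right), and bars are exact 95% intervals that take genes as independent. The share is 35.0% at a wild type level of 4% to 5% and 19.6% with 50 or more cmd1 KO sites, against 1.46% under 1% and 1.64% with 20 to 29 sites.

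The genes were found on each of the 16 chromosomes of the rule. Their share among the genes of a chromosome ranged from 1.12% on chromosome 10 (12 of 1068, exact 95% interval 0.58% to 1.95%) to 4.25% on chromosome 13 (34 of 800, 2.96% to 5.89%) and 4.19% on chromosome 5 (19 of 453, 2.54% to 6.47%). Chromosome 6 held the most, 43. Chromosomes 13 and 5 differed in how many genes kept 10 points with the wild type site number, 1 of 34 and 6 of 19. On chromosome 9 it was 10 of 35, and on chromosomes 2, 3 and 16 it was 0 of 27, 0 of 26 and 0 of 25. Chromosome 13, with the highest share, thus held few of the genes that kept 10 points.

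The rule uses no information on position within a chromosome, yet many genes of the set lay side by side. Gene order was taken from the RefSeq table of assembly Chlamydomonas_reinhardtii_v5.5, in which 406 of the 407 genes were found. A gene of the set was the direct neighbour of 80 of the 406 (19.7%, exact 95% interval 15.95% to 23.9%) and of 640 of the other 15748 low genes (4.06%, 3.76% to 4.38%). The 80 genes lay in 37 runs of neighbours, so they are not independent as the intervals assume, and the intervals cannot serve as a test. Within classes of the wild type level the shares were 14.5% against 3.58% under 1%, 15.6% against 4.33% between 1% and 2%, and 30.1% against 6.45% between 2% and 5%. Among the genes that kept 10 points with the wild type site number, 15 of 52 were direct neighbours of another such gene (28.8%), against 0.42% of the other low genes. The share was 12.7% for a set cut at 15 points and 9.54% for one cut at 2% in wild type, against 1.04% and 3.05%, and 0 of the 10 genes that kept 10 points at 2.02 times the wild type sites adjoined another of the 10. For these narrower sets the other low genes were still the 15748, so the rest of the 407 genes were in neither group. Neighbouring genes share both libraries and may share sites, since no source used here states the region assigned to each gene, and no test was made of these shares.

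Some neighbours had the same values throughout, as when they share all their sites. The pairs Cre05.g241640 and Cre05.g241641, Cre12.g516700 and Cre12.g516717, and Cre14.g613050 and Cre14.g613075 had identical site numbers and levels in both columns. When neighbours with such identical values were not counted, 74 of 406 genes (18.2%) still had a neighbour in the set. The 43 pairs of neighbours differed in their cmd1 KO minus wild type value by a median of 2.14 points and by up to 23.0 points, and by 0 in the 3 identical pairs.

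The share was lower farther away. Of the direct neighbours of the set with levels, 10.8% belonged to it (86 of 794, each pair being seen from both of its genes), against 2.14% of the direct neighbours of other low genes. The share was 6.59% at 2 places (52 of 789), 4.34% at 3 places (34 of 783) and 2.57% at 4 places. From 4 to 10 places it lay between 2.07% and 4.09%, against 2.33% to 2.40% around other low genes. Neighbours outside the set had a median difference of 4.82 points at 1 place, against 4.69 points around other low genes. Genes of the set are left out of both medians, so their closeness follows partly from the rule.

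**Figure D4:**
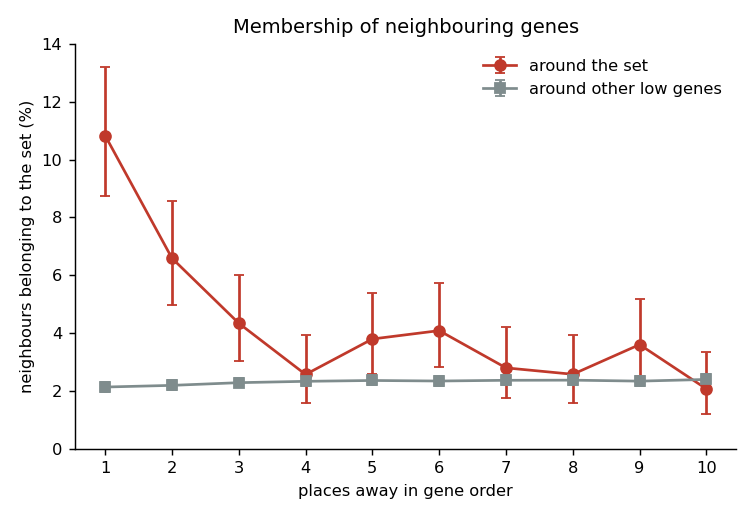
The percentage of neighbours that belong to the set is plotted against the number of places away in gene order, around genes of the set (red circles) and around other low genes (grey squares), with exact 95% intervals that take neighbours as independent. Around the set it goes from 10.8% at 1 place to 2.57% at 4 places, and around other low genes it stays between 2.14% and 2.40%.

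The 406 genes fell into 363 runs of uninterrupted neighbours, of which 326 were single genes, 32 were pairs, 4 had 3 genes and 1 had 4 genes. The run of 4 was on chromosome 9. In gene order, Cre09.g397702 stood at 2.56% in wild type and 26.8% in cmd1 KO, Cre09.g397550 at 2.61% and 22.4%, Cre09.g397500 at 1.19% and 21.0%, and Cre09.g397450 at 1.89% and 14.7%. The genes on either side, Cre09.g397701 and Cre09.g397400, were outside the set but stood at 9.83% and 9.49% in cmd1 KO, and the next ones at 5.68% and 5.82%. The cmd1 KO level was thus intermediate in the flanking genes, while none of the 4 exceeded 3% in wild type.

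A run of 3 on chromosome 5 had sharp edges. Cre05.g245701 stood at 1.73% in wild type and 25.9% in cmd1 KO, Cre05.g245550 at 1.12% and 25.2%, and Cre05.g245500 at 1.16% and 28.0%. The flanking Cre05.g245700 and Cre05.g245450 stood at 5.83% and 6.99% in cmd1 KO. The other low genes had a cmd1 KO median of 5.76% and an upper quartile of 6.71%. The levels of the 3 genes were within 3 points of each other over different numbers of listed sites (51, 60 and 50 in cmd1 KO).

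The other runs of 3 were less even. On chromosome 17, Cre17.g719701, Cre17.g719750 and Cre17.g719771 stood at 17.7%, 14.2% and 35.9% in cmd1 KO, from 1.41%, 3.66% and 2.30% in wild type. Cre07.g315850, Cre07.g315900 and Cre07.g315950 on chromosome 7 stood at 16.6%, 14.5% and 25.6%, the last over only 9 listed cmd1 KO sites. Cre17.g730450, Cre17.g730483 and Cre17.g730516 stood at 22.2%, 13.1% and 13.8%. Just beyond 1 flanking gene of this last run lay Cre17.g730350, which was already at 21.6% in wild type and stood at 30.5% in cmd1 KO.

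**Figure D5:**
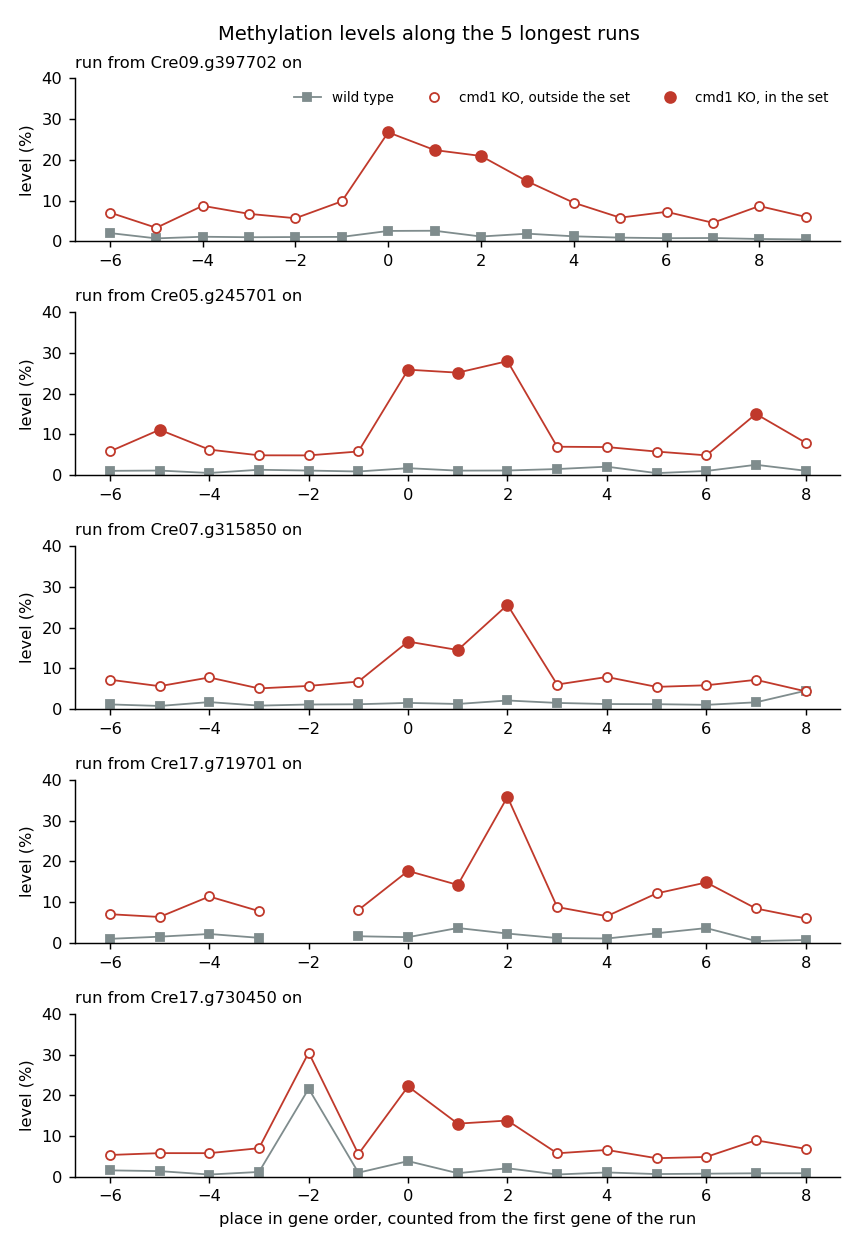
Levels in percent are plotted in gene order around the run of 4 genes and the 4 runs of 3 genes, with wild type as grey squares and cmd1 KO as red circles, filled for genes of the set; the gap in a line is a gene without levels. The wild type level stays under 4% in every gene of the runs. The cmd1 KO level reaches 26.8% in the run on chromosome 9 and 28.0% in the run on chromosome 5. It is highest, at 35.9%, in Cre17.g719771 on chromosome 17.

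Genes already methylated in wild type also lay beside some genes of the set. A direct neighbour at 10% or more in wild type was present for 30 of the 406 genes (7.39%, exact 95% interval 5.04% to 10.4%) and for 254 of the other 15748 low genes (1.61%, 1.42% to 1.82%). With a limit of 5% these shares were 10.8% (44 genes) and 2.95%. Most of the set thus had no such neighbour. Among the 10 genes nearest to a chromosome end lay 15 of the 406 (3.69%, 2.08% to 6.02%) and 1.66% of the other low genes, and within 20 genes 22 (5.42%) and 3.56%. Within 50 genes the shares were 9.11% and 9.01%.

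Genes of intermediate methylation were compared last. The 386 genes at 10% to 40% in wild type on the same chromosomes had a median of 21.9% in wild type, 28.8% in cmd1 KO, a median difference of 5.60 points and a median site ratio (cmd1 KO over wild type) of 1.25. The summed cmd1 KO level was a median of 1.57 times the summed wild type level in them, 4.13 times in the 404 genes of the set with wild type methylation, and 1.71 times in the other low genes. The sums do not depend on the number of sites at 0, but they use the levels by which the set was chosen. Where a cmd1 KO list holds each level once, repeated levels above 0 would also be missing from its sum. Whether this was so was not tested, so the sums of the 2 columns may not be alike.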

How the data were processed

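Whole-genome bisulfite sequencing gave 1 table of 17527 gene entries for 1 wild type and 2 cmd1 KO libraries. The tools named per the submitters' processing notes are BSMAP, Trimmomatic 0.36 and FastQC 0.11.5, and the sources used here do not state the genome build, annotation, coverage minimum, gene regions or read depth. Per the file headers, the authors deposited for each genotype a count of sites and a methylation level as a fraction, printed here as percent, with a difference, a relative change, a fold (not used) and a p-value. Levels are empty for 201 entries, which were left out. Every level rests on 5 or more listed sites. The difference was recomputed as the cmd1 KO minus the wild type level. The authors' p-values were adjusted over 17326 genes by the Benjamini-Hochberg method. Gene order came from RefSeq assembly Chlamydomonas_reinhardtii_v5.5 (17525 entries matched by locus tag), whose coordinates were not printed. That table gave no names, products or sequences, so the planned promoter, protein and annotation groups were not analysed here. Named genes are the 10 largest differences, up to 3 genes on each side of a threshold, the longest runs of neighbours and the genes that kept 10 points under the largest number of sites, with the 7 fixed loci. The 3 genes at 0 in wild type, the identical pairs and the genes flanking a run were named after their values were seen. As 4 runs of 3 genes tied for the second place, all 4 are given. The members, lists and rules were chosen with earlier results of these data known. Python 3.11.15, pandas 2.3.3, NumPy 2.4.6, SciPy 1.17.1 and matplotlib 3.10.9 were used. The selection and neighbour counts were tested on deposited values of low genes, in their deposited order, with larger differences planted in some.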

Additional observations from a re-analysis of the deposited data

How the results depend on the processing

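With a difference of at least 8 points the set held 899 genes and with 15 points 110; with a wild type level under 2%, with at least 20 sites in both columns, and with all chromosomes and scaffolds it held 284, 306 and 425, within 1.5 times of 407. With the wild type site number, 1.52 times and 2.02 times that number, it held 52, 13 and 10 genes, and with 1 fully methylated cmd1 KO site removed 168. The median difference was 12.2 points, 12.5 points with at least 20 sites, 4.46, 2.36 and 1.41 points with the 3 site numbers, and 9.16 points with 1 site removed. The share of the set with a direct neighbour in it was 19.7%, 12.7% with 15 points, 9.54% under 2% in wild type, and 28.8%, 15.4% (2 of 13 genes) and 0% (0 of 10 genes) with the 3 site numbers, and 28.6% within 2 genes. The same shares for other low genes were 4.06%, 1.04%, 3.05%, 0.42%, 0.10%, 0.08% and 7.79%. The sets differ in size, and the added zeros lower the levels by construction. Beyond this, the cause of these shifts was not tested. The removal of 1 site and the counting of identical genes once (404 genes, 18.4% with a neighbour) were chosen after seeing the data. Promoter and protein alternatives were not run. No paired analysis was possible because the 2 cmd1 KO libraries share 1 column, which also left no library to leave out. Read depth is unknown, so no level has an interval.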
